A study of Mus musculus with 6 samples.

Results

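The 7 genes described here, Tmem182, Slc36a2, Car3, Adhfe1, St3gal6, Ndrg2 and Lgals12, encode proteins of membrane transport, small-molecule metabolism, glycosylation and lipid droplets, and several of them are known as genes that mature fat cells express. They were chosen by their irradiated minus control differences, because their RNA was lower in cultures exposed to terahertz radiation than in the paired controls. All probe sets annotated with exactly one of these symbols were taken, which gives 17 of the 45037 probe sets tested and 7 of the 18193 genes with a probe set of their own. Since the irradiated minus control differences chose these genes, those differences are given as a description, with no test, and their sizes are not independent estimates.

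RNA was measured on Affymetrix expression arrays in mouse mesenchymal stem cells, a commercial preparation of stromal cells with the capacity to form several connective tissues. The groups were 3 cultures irradiated for 2 h with broadband terahertz pulses (35 fs, centred near 10 THz, 1 mW/cm2) and 3 unexposed control cultures, 1 of each in each of 3 independent experiments, with both held at 26 to 27 °C. All 6 cultures, controls included, had received rosiglitazone (1 µM), insulin (5 µg/ml), dexamethasone (1 µM) and the phosphodiesterase inhibitor IBMX (100 µM) again 48 h before exposure, which together make up an adipogenic mix, and each experiment's cultures were brought to the same differentiation time point. RNA was taken directly after exposure.

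When stromal precursors become fat cells, the nuclear receptor PPARG and the C/EBP factors switch on genes for lipid storage, and late genes of the programme mark how far the cells have matured. Several of the late genes are also active in other tissues. Car3 and Tmem182, for instance, are known from skeletal muscle as well as fat, and Slc36a2 is known as a surface marker of brown fat cells. Rosiglitazone is a PPARG ligand, and IBMX, dexamethasone and insulin act together with it in the usual induction mix.

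Promoter windows from RefSeq (GRCm38.p6), reaching from 250 bases before to 50 after an annotated start, were found for Tmem182, St3gal6 and Ndrg2, and are shown because PPARG binds as a pair with RXR to repeats related to AGGTCA. Slc36a2, Car3, Adhfe1 and Lgals12 have no window in the table used. In the window of Tmem182 (chr1:40805351-40805650, plus strand) the capitals mark an AGGTCA half-site, and in the windows of St3gal6 (chr16:58524204-58524503, minus strand) and Ndrg2 (chr14:51913280-51913579, minus strand) they mark the run GTCAAAGG.
Tmem182: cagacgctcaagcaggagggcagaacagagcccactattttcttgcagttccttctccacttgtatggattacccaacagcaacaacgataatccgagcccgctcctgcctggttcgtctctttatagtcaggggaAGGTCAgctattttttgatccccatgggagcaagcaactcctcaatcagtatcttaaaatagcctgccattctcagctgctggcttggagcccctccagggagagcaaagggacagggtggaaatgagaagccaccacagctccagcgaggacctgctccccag
St3gal6: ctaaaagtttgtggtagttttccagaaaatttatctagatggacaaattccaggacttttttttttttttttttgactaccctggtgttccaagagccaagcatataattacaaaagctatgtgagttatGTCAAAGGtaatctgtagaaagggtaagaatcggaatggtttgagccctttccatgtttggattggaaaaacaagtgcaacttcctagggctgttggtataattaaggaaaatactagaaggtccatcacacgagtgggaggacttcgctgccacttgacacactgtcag
Ndrg2: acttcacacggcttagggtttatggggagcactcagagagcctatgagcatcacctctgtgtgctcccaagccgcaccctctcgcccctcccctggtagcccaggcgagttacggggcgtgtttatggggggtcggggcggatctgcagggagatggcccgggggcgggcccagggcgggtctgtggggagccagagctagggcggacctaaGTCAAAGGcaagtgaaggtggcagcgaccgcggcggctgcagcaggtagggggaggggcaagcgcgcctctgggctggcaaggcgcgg

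The 3 genes have 6 windows in all, 1 for Tmem182, 2 for St3gal6 and 3 for Ndrg2. On either strand AGGTCA was in 2 of the 6, and in 16.3% of all 32851 windows. Its first base lies 114 bases before the annotated start in Tmem182 and 166 bases before it in another window of Ndrg2. The run GTCAAAGG, which was picked after these windows had been read, was in 2 of the 6 windows and in 1.06% of all. It starts 38 bases before the annotated start in Ndrg2 and 120 bases before it in St3gal6. The full direct repeat, 2 copies of AGGNCA in tandem with 1 base between them (0.381% of all windows), the C/EBP palindrome TTNCGNAA (2.47%), the E-box CACGTG (7.15%), the cyclic AMP element TGACGTCA (1.79%) and the glucocorticoid palindrome, GAACA and TGTTC with 3 bases between them (0.0578%), had no match in the 6 windows. TATAAA was in 2 of the 6 windows (13.6% of all), CCAAT in 1 (37.4%) and GGGCGG in 4 (35.7%). AGGTCA can form part of the direct repeat, and a match is only a match of letters.

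The cultures carried RNA of most of the late fat-cell genes looked at. Fabp4, the fatty acid carrier of adipocytes, stood at a log2 level of 14.37 in irradiated and 14.45 in control cultures, and Adipoq, the adiponectin gene, at 13.69 in irradiated and 13.83 in control cultures. Of 11 measured stromal markers 10 lay at or above 4.84, the level of the median probe set, and Thy1, a defining marker of stromal cells, lay below it at 3.84. Of 29 measured late fat-cell genes 26 lay at or above the median, while Cidea, Pck1 and Lep lay below it, at 3.26, 3.23 and 2.81. All 15 measured macrophage and leukocyte markers lay at or above the median, with a median level of 11.67. Of 20 skeletal muscle markers 14 lay below it, Myod1, Myog and Myf5 among them, and of 16 brown and beige fat genes 12 lay below it, Ucp1 at 4.13 among them. Hybridization controls averaged between 11.06 and 11.25 on 5 arrays and 11.63 on the array of control culture 3. Values given below with their pair differences can therefore be read with and without experiment 3. Means given without pair differences cannot be read in that way.

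By limma 0 of 45037 probe sets (0%) passed an adjusted p of 0.05 between irradiated and control cultures, and 2237 (4.97%) had an unadjusted p under 0.05. With an intensity trend and a robust prior 1 passed, which was Tmem182. The choice of members used this contrast. In the first of these fits no probe set passed, members included. Not passing therefore does not set a relative, neighbour or listed gene apart from the members. Of the 17 member probe sets 12 were lower in all 3 irradiated cultures than in their own controls, as were 11.2% of all probe sets, and nothing is read from that difference in share. Every one of the 7 genes had at least 1 such probe set. In 6 member probe sets, of 5 genes, each irradiated array lay below each control array, against 3.1% of all probe sets, and in 0 did each lie above, against 3.63%. The median difference of the 17 was -0.38 on the log2 scale, and that of all probe sets was 0.0033. A level lower by at least 0.3 in each of the 3 pairs was found for 5 member probe sets, of 5 genes, and for 0.0955% of all probe sets. Of the 17 probe sets 12 lay at or above the median level. Of these 12, 11 were also lower in all pairs, and 10 of the 11 had a mean difference of -0.3 or below and are called the leading probe sets here.

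Tmem182, at chr1:40805573-40856887, encodes a transmembrane protein that is known to be expressed in maturing fat and muscle cells. Its single probe set stood at 6.79, 6.67 and 6.76 in irradiated cultures 1, 2 and 3, against 7.63, 7.55 and 7.72 in control cultures 1, 2 and 3. The arms do not overlap, and the gap between them is several times the range within either arm, which was 0.12 in irradiated and 0.17 in control cultures. The pair differences were -0.84, -0.88 and -0.96, with a mean of -0.89 ± 0.06 (SD of 3 pairs), which is 1.86 times lower. Irradiation took 98.2% of the sum of squares of its 6 values and experiment 1.52%. The share of irradiation is large partly because the gene was chosen for that difference. In size its mean difference ranked 7th from the most negative of all probe sets, behind both leading probe sets of Car3.

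Slc36a2, at chr11:55158468-55185099, encodes a transporter that carries small amino acids such as glycine and proline into cells together with protons. It stood at 7.04, 6.83 and 7.15 in irradiated cultures 1, 2 and 3, against 8.0, 7.44 and 7.57 in control cultures 1, 2 and 3. The arms do not overlap, with a range of 0.32 in irradiated and 0.56 in control cultures, where control culture 1 was high. The pair differences were -0.96, -0.61 and -0.42 (mean -0.66 ± 0.27, SD of 3 pairs), which is 1.58 times lower. Its 2 neighbours in the genome are transporters of the same family, and neither passed the test, which no probe set passed. Slc36a1 was at 0.04 ± 0.07 (SE of limma's fit) and Slc36a3 at 0.03 ± 0.12, while Slc36a4 was at 0.02 ± 0.08.

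**Figure D1:**
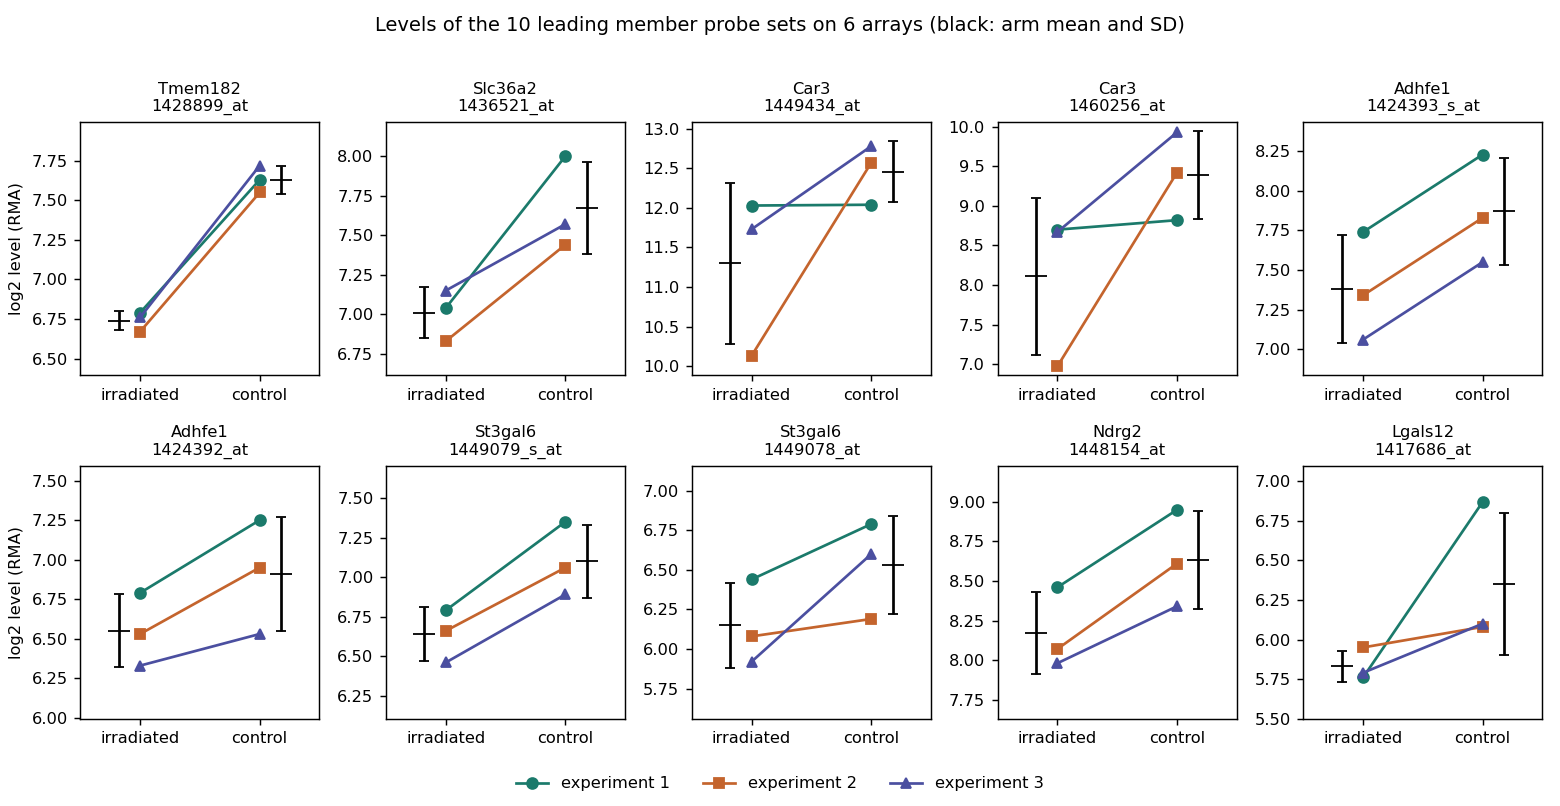
Log2 level of the 10 leading probe sets on the 6 arrays, irradiated cultures at the left of each panel and control cultures at the right, with a line joining the cultures of 1 experiment and black bars for the arm mean and SD (n = 3). The lines of Tmem182 nearly coincide, those of Adhfe1 1424393_s_at run parallel, and Car3 and Lgals12 owe most of their mean difference to 1 or 2 experiments; the Car3 panels span a wider range of levels than the others.

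Car3, at chr3:14863538-14872381, encodes carbonic anhydrase III, a cytosolic enzyme abundant in fat and muscle that hydrates carbon dioxide slowly for its family. It has 4 probe sets. Probe set 1449434_at stood at 12.03, 10.13 and 11.73 in irradiated cultures 1, 2 and 3, against 12.04, 12.57 and 12.78 in control cultures 1, 2 and 3. Irradiated culture 2 was the lowest array by far, and the pair of experiment 1 was level, with differences of -0.01, -2.44 and -1.05. The arms do not overlap by a margin of 0.01 only. Probe set 1460256_at was also lowest in irradiated culture 2, with 8.70, 6.97 and 8.67 in irradiated cultures 1, 2 and 3, against 8.82, 9.42 and 9.93 in control cultures 1, 2 and 3. Its pair differences were -0.12, -2.45 and -1.26 (mean -1.28 ± 1.17, SD of 3 pairs), and those of 1449434_at had a mean of -1.17 ± 1.22. These are the 2 most negative mean differences on the array, and they carry the widest spread among the members. Without experiment 2 the means were -0.53 for 1449434_at and -0.69 for 1460256_at, and without experiment 1 they were -1.74 and -1.85.

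The other 2 probe sets of Car3 lay below the median level, at means of 4.05 and 2.58, and had differences of 0.06 and 0.03, so the 4 probe sets do not give one picture. Among 15 other carbonic anhydrase genes 11 were negative and 4 positive, the median being -0.12, and 0 passed the test, which no probe set passed. Car5b, a mitochondrial carbonic anhydrase, was at -0.26 ± 0.08 (SE of limma's fit), with pair differences of -0.33, -0.17 and -0.28. Car2, the fast cytosolic enzyme whose gene lies 13888 bases beyond Car3, was at -0.38 ± 0.21, with pair differences of -0.27, 0.15 and -1.02. In experiment 2, where Car3 had its most negative difference, that of Car2 was therefore positive.

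Adhfe1, at chr1:9547948-9577970, encodes a mitochondrial transhydrogenase that oxidizes gamma-hydroxybutyrate and passes the electrons to 2-oxoglutarate. Probe set 1424393_s_at stood at 7.74, 7.34 and 7.06 in irradiated cultures 1, 2 and 3, against 8.23, 7.83 and 7.55 in control cultures 1, 2 and 3. All 3 pairs differed by -0.49, the same value to 2 decimals, although the arms overlap, because the experiments were set apart by more than irradiation. Experiment took 56.5% of its sum of squares and irradiation 43.5%. Probe set 1424392_at stood at 6.79, 6.53 and 6.33 in irradiated cultures 1, 2 and 3, against 7.25, 6.95 and 6.53 in control cultures 1, 2 and 3, with pair differences of -0.46, -0.42 and -0.20. The dim probe set 1444193_at, with a mean level of 3.42, was lower in 2 of 3 pairs and averaged -0.07. Of 9 measured genes of hydroxybutyrate and hydroxyglutarate metabolism 5 were negative and 4 positive, and none passed the test, which no probe set passed. Bdh1, which interconverts the ketone bodies, was at 0.26 ± 0.12 (SE of limma's fit), Aldh5a1, which disposes of the semialdehyde that Adhfe1 forms, at -0.08, and D2hgdh, which clears D-2-hydroxyglutarate, at 0.05.

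St3gal6, at chr16:58469742-58524260, encodes a sialyltransferase that adds sialic acid to galactose ends of sugar chains. It has 5 probe sets. Probe set 1449079_s_at stood at 6.79, 6.66 and 6.46 in irradiated cultures 1, 2 and 3, against 7.35, 7.06 and 6.89 in control cultures 1, 2 and 3. The arms do not overlap, and the pair differences were -0.56, -0.40 and -0.43 (mean -0.46 ± 0.09, SD of 3 pairs). Probe set 1449078_at averaged -0.38 ± 0.29, from -0.11 in experiment 2 to -0.68 in experiment 3. The brightest probe set, 1447841_x_at, differed by only -0.05 ± 0.02, and its levels lay between 6.91 and 7.05 on all 6 arrays. The remaining 2 were dim and averaged -0.09 and -0.02. The probe sets of St3gal6 thus do not give one size for the difference. Probe sets with the suffix x_at can bind other transcripts. So can those with the suffix s_at, such as 1449079_s_at here and 1424393_s_at of Adhfe1. The 5 sialyltransferase relatives St3gal1 to St3gal5 lay between -0.03 and 0.03, and 0 passed the test, which no probe set passed. Dcbld2, a gene that overlaps St3gal6 in the annotation, was at -0.04 ± 0.08 (SE of limma's fit).

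Ndrg2, at chr14:51905271-51914004, encodes a cytoplasmic protein of the N-myc downstream-regulated family that is abundant in brain, muscle and fat. Its single probe set stood at 8.46, 8.07 and 7.98 in irradiated cultures 1, 2 and 3, against 8.95, 8.61 and 8.34 in control cultures 1, 2 and 3. The pair differences were -0.49, -0.54 and -0.36 (mean -0.46 ± 0.09, SD of 3 pairs), which is 1.38 times lower, while the arms overlap because of the spread between experiments. Its relatives did not pass the test, and nor did Ndrg2 itself or any other probe set. Ndrg1 had pair differences of 0.00, 0.35 and -0.77, and Ndrg3 and Ndrg4 averaged 0.06 and -0.05.

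Lgals12, at chr19:7596656-7607233, encodes galectin-12, a sugar-binding protein found mainly in fat cells, where it sits on lipid droplets and restrains lipolysis. Probe set 1417686_at stood at 5.76, 5.95 and 5.79 in irradiated cultures 1, 2 and 3, against 6.87, 6.08 and 6.10 in control cultures 1, 2 and 3. Control culture 1 alone was high, and the pair differences were -1.11, -0.13 and -0.31 (mean -0.52 ± 0.52, SD of 3 pairs). Without experiment 1 the mean was -0.22. The second probe set, 1417687_at, averaged -0.11, with a positive difference of 0.09 in experiment 3. Of 7 other galectin genes 0 passed the test, which no probe set passed, and they lay between -0.05 and 0.10. Lgals1 and Lgals3, which many cell types express strongly, were at -0.01 and 0.01.

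**Figure D2:**
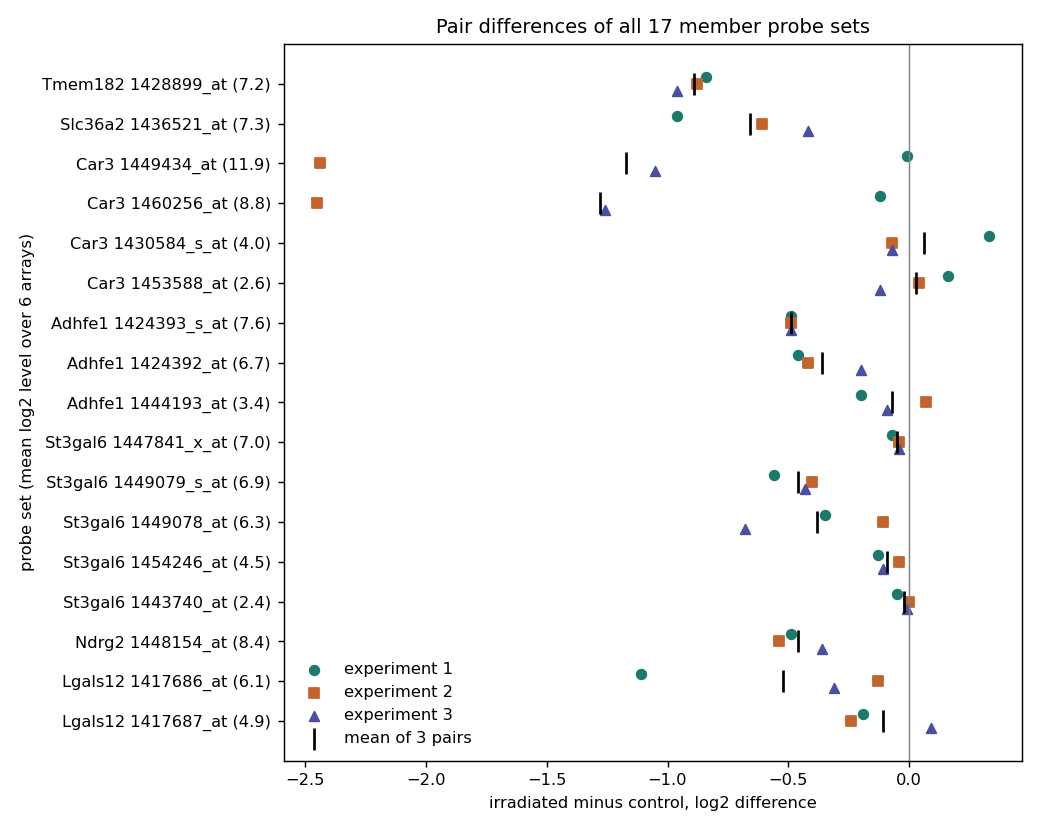
Irradiated minus control log2 difference in each of the 3 experiments, and their mean, for all 17 member probe sets, with the mean log2 level of each probe set in brackets. The means of probe sets below the median level of 4.84 stay near 0 whichever gene they represent, although Car3 1430584_s_at reached 0.33 in experiment 1. The 3 differences of Car3 are far more scattered than those of Tmem182, Adhfe1 or Ndrg2.

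The choice of members asked for a lower value in every pair, and some probe sets lie close to that edge. Just inside it were Car3 1449434_at, with -0.01 in experiment 1, and St3gal6 1447841_x_at and 1454246_at, each with -0.04 in experiment 2. Just outside were St3gal6 1443740_at, with 0.00 in experiment 2, Adhfe1 1444193_at, with 0.07 in experiment 2, and Lgals12 1417687_at, with 0.09 in experiment 3. Car3 1430584_s_at missed it by 0.33 in experiment 1, and Car3 1453588_at was higher in 2 of 3 pairs.

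Differences between experiments, averaged over both arms, were not what the members were chosen on. Their error combines the spread between pairs with a variance that limma pools over all probe sets. Choosing genes that were lower in every pair favours a small spread, however, so the p-values below are not free of that choice. For Adhfe1 1424393_s_at the SD of the pairs was 0.0, so its SE below comes from the pooled part. Adhfe1 and Ndrg2 were lower in experiment 3 than in experiment 1. Adhfe1 1424393_s_at differed by -0.68 ± 0.09 (SE of limma's fit, adjusted p = 0.0187), in irradiated and in control cultures alike. Adhfe1 1424392_at differed by -0.59 ± 0.11 (limma adjusted p = 0.0477), with -0.46 in irradiated and -0.72 in control cultures. Ndrg2 differed by -0.55 ± 0.10 (limma adjusted p = 0.0471), with -0.48 in irradiated and -0.61 in control cultures. These 3 probe sets, of 2 genes, were the only members called, all lower in experiment 3, where 1.18% of all probe sets were called lower and 3.05% in either direction. A sign of RNA quality moved with experiment 1. The Gapdh control probe sets at the 3′ end exceeded those at the 5′ end by 0.23 and 0.19 on its irradiated and control arrays, and the same difference lay between -0.05 and -0.01 on the other 4 arrays. For Actb it was 0.76 and 0.75 in experiment 1 and between 0.61 and 0.72 on the other 4. The part of this in any comparison with experiment 1, those of the gene lists included, was not tested. The calls rest on 2 arrays per experiment. A fit without the irradiation term counts the arm difference, for which the members were chosen, as error. Fitted without the irradiation term 0 of the 17 passed, with quantile normalization 1, and without any single array 0, and 0 of all probe sets passed then, with 1 residual degree of freedom left.

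No member passed between experiments 2 and 1 or between experiments 3 and 2 by limma. Between experiments 2 and 1, 6 of the 17 had an unadjusted p under 0.05, as did 9.89% of all probe sets, while 0.52% of all passed the adjusted threshold (0.0466% lower and 0.473% higher). Between experiments 3 and 2 the unadjusted count was 2 of 17, against 9.89% of all probe sets, and 0.0355% of all passed, while between experiments 3 and 1 it was 5 of 17, against 19.1%. St3gal6 1449079_s_at was at -0.40 ± 0.10 (SE) between experiments 3 and 1, with an adjusted p of 0.10 by limma. Tmem182 differed by 0.03 between experiments 3 and 1, with a 95% interval from -0.20 to 0.26, and by -0.10 between experiments 2 and 1, with an interval from -0.33 to 0.13. Slc36a2 differed by -0.16 between experiments 3 and 1 (95% interval -0.51 to 0.19). For Car3 1449434_at the interval ran from -1.0 to 1.44, so differences of more than 2-fold between these experiments could not be told from none. Each experiment was run once, so these p-values compare the 3 experiments as run. Their error is the spread between pairs as moderated by limma over all probe sets.

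**Figure D3:**
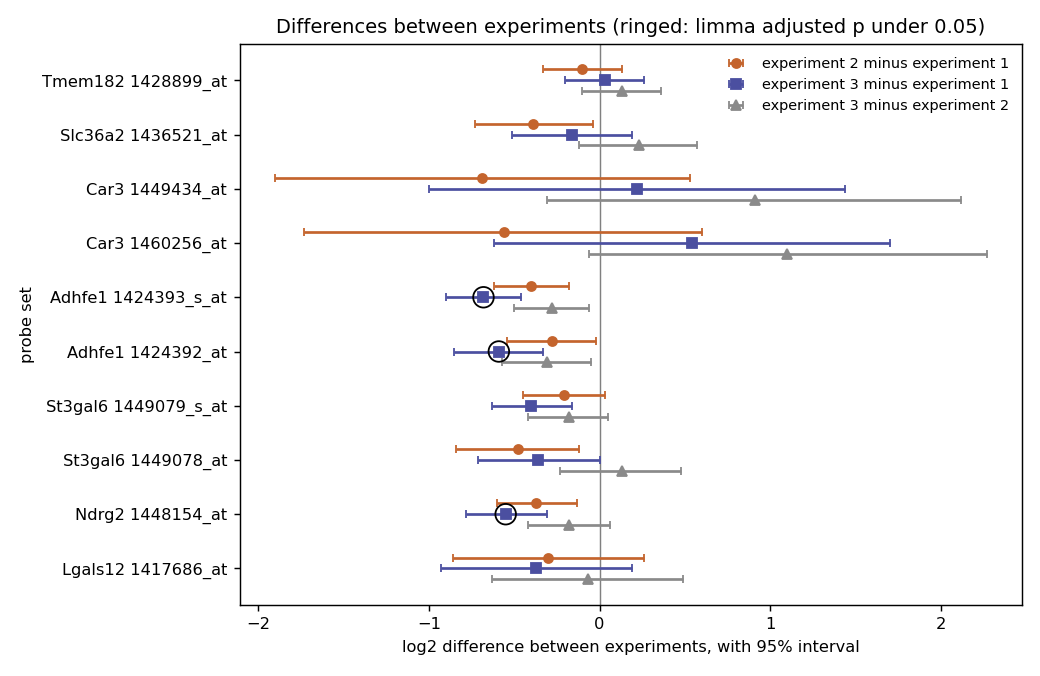
Log2 differences between experiments, averaged over both arms, for the 10 leading probe sets, with 95% intervals from limma's fit on 6 arrays; ringed points passed an adjusted p of 0.05. Ringed are both Adhfe1 probe sets and Ndrg2 for experiment 3 minus experiment 1, and the intervals of Tmem182 are narrow and contain 0.

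Genes of the fat-cell programme beyond the members were set beside them, in lists chosen with earlier results of these data known. The counts of these and the following lists are a description and not independent evidence. Of 29 measured late fat-cell genes 28 were negative and 1 was positive, the median being -0.26, 20 were lower in all 3 pairs (11.2% of all probe sets were), and 0 passed the test. Cidec, which enlarges lipid droplets, was at -0.48 ± 0.09 (SE of limma's fit), with pair differences of -0.63, -0.38 and -0.42. Aqp7, the glycerol channel of fat cells, was at -0.50 ± 0.11, with -0.70, -0.25 and -0.55. The mean level of the list was 8.99, 8.95 and 8.91 in irradiated cultures 1, 2 and 3, against 9.32, 9.15 and 9.10 in control cultures 1, 2 and 3, and the arms do not overlap. In bulk RNA fewer mature fat cells in a culture and less RNA of these genes per cell cannot be told apart.

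Of 13 fat-cell transcription factor genes 12 were negative, with a median of -0.09, and 0 passed between irradiated and control cultures. Mlxipl, which encodes the glucose-responsive factor ChREBP, was at -0.55 ± 0.08 (SE of limma's fit), with pair differences of -0.62, -0.46 and -0.58, and Ebf1 at -0.23 ± 0.09. Between experiments 3 and 1, 2 of the 13 rose and 2 fell, where 1.87% and 1.18% of all probe sets did. Cebpb and Cebpd, early factors of fat-cell differentiation, rose by 0.97 ± 0.11 (limma adjusted p = 0.0109) and 0.71 ± 0.11 (limma adjusted p = 0.0316). Ebf1 fell by 0.59 ± 0.10 (limma adjusted p = 0.0452) and Ebf2, known from brown fat precursors, by 0.69 ± 0.10 (limma adjusted p = 0.0232). Of the late genes 1 passed between these experiments. It was Acaca, the first enzyme of fatty acid synthesis, at -0.58 ± 0.10 (limma adjusted p = 0.041).

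Of 20 preadipocyte and precursor genes 10 were positive and 10 negative in irradiated cultures, with a median of 0.0033, and 0 passed. Klf2, a repressor of PPARG in precursors, was at -0.25 ± 0.09 (SE of limma's fit), and Thy1 at 0.23 ± 0.10. Both Klf2 and Sox9, a precursor factor that holds back differentiation, rose in experiment 3 relative to experiment 1, by 2.54 ± 0.11 (limma adjusted p = 0.000603) and 2.70 ± 0.19 (limma adjusted p = 0.00225). Of this list 3 genes rose and 1 fell in that comparison, and 3 rose between experiments 2 and 1, where 0.473% of all probe sets did. In the brown and beige list 10 of 16 were negative and 5 positive, with a median of -0.05, and 0 passed, and in the skeletal muscle list 7 of 20 were negative and 13 positive, with a median of 0.03, and 0 passed. Fgf21, a hormone that brown fat can secrete, was at -0.34 ± 0.14, with pair differences of -0.19, -0.08 and -0.75. Myh3, the embryonic myosin, was at 0.26 ± 0.08. Both genes lay below the median level, Fgf21 at a mean of 4.74 and Myh3 at 3.38.

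Markers of other cell types were set beside the members too. Of 15 macrophage and leukocyte markers 13 were positive and 2 negative, with a median of 0.06, and 0 passed. Their mean level was 10.75, 10.70 and 10.68 in irradiated cultures 1, 2 and 3, against 10.75, 10.64 and 10.50 in control cultures 1, 2 and 3, so the pair of experiment 1 was level. Cd14 was at 0.27 ± 0.09 (SE of limma's fit) and Ptprc, the common leukocyte antigen CD45, at 0.19 ± 0.08. The median was 0.00 for 11 stromal, 0.02 for 12 neuronal and 0.07 for 10 endothelial markers, and 0 of each passed. Their part in the lower levels of the 7 genes was not tested.

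**Figure D4:**
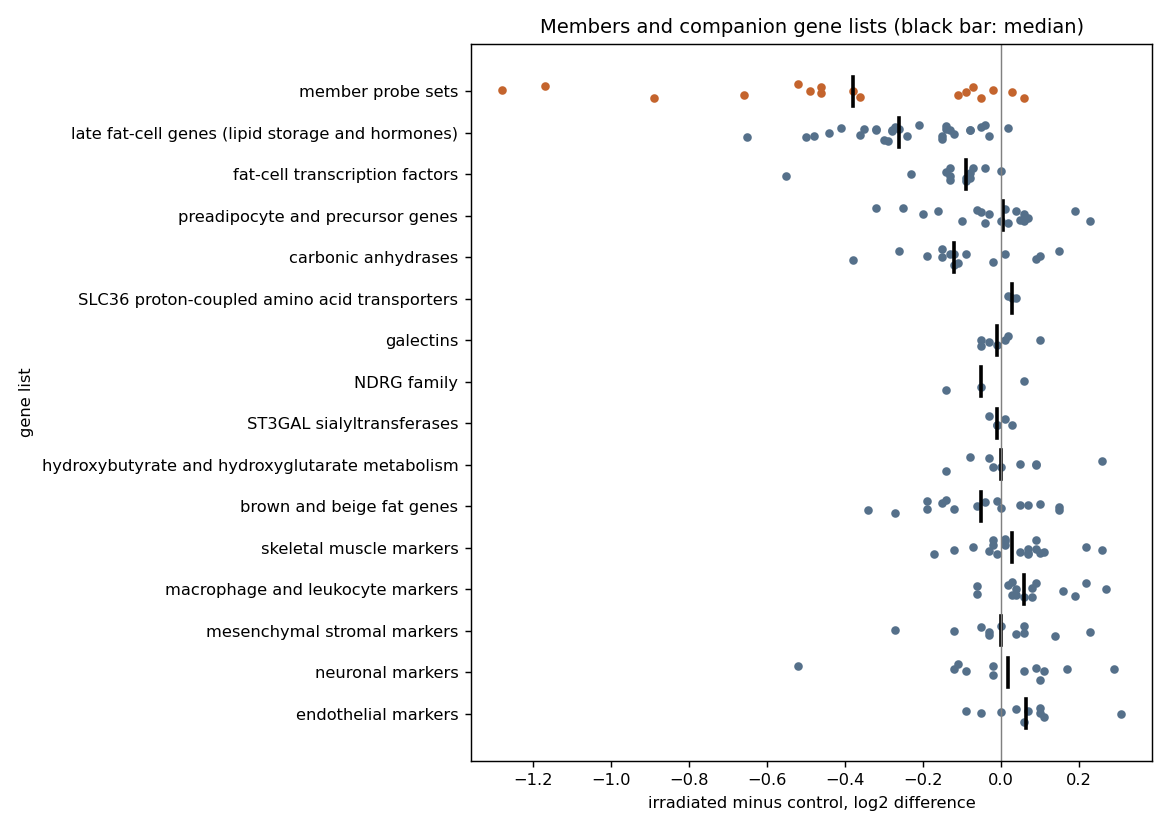
Irradiated minus control log2 differences of the 17 member probe sets, chosen for low values, and of the genes of 15 companion lists, with the median of each as a black bar. The lists were chosen with earlier results of these data known. The members' median is -0.38, the late fat-cell genes' is -0.26, and the families of the members other than the carbonic anhydrases have medians between -0.05 and 0.03.

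On the genome the members share little. Tmem182 and Adhfe1 lie on chromosome 1, far apart, and the other 5 lie on 5 other chromosomes. Chosen after the values were seen, the nearest protein-coding genes on both sides, and 1 that overlaps a member, were looked at. Of 15 such genes 13 were measured, 9 with a negative and 3 with a positive difference, where 47.6% of all probe sets were negative. In all 3 pairs 2 were lower and 1 was higher, as were 11.2% and 12.6% of all probe sets. The test was passed by 0, as by 0 of all probe sets, and nothing is read from these counts. The 2 that were lower in all pairs follow. Mfsd9, a gene of the major facilitator family that lies 14916 bases before Tmem182, was at -0.43 ± 0.09 (SE and adjusted p of 0.929 from limma), and its pairs gave -0.33, -0.36 and -0.59. Plaat3, the adipose phospholipase also called AdPLA, lies 8111 bases before Lgals12 and was at -0.29 ± 0.08 (limma adjusted p = 0.929), and its pairs gave -0.34, -0.23 and -0.29. On the other side of Tmem182, Pou3f3 was at -0.05, and on the other side of Lgals12, Plaat5 was at 0.02. Rrs1, which lies 493 bases before Adhfe1 and serves ribosome assembly, was at 0.00 ± 0.11.

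The genes most like each member in their pattern over the 6 arrays were taken from 20224 single-gene probe sets at or above the median level, by Pearson's r, which is a description over 6 arrays that share experiments and arms. Most like Tmem182 were Cops6 (r = 0.9997), Pde10a (r = 0.989), Ehhadh (r = 0.987), 1110008P14Rik (r = 0.973) and Reep5 (r = 0.973). Ehhadh, a peroxisomal enzyme of fatty acid oxidation, and Reep5, which shapes the endoplasmic reticulum, were found through their brightest probe sets. The brightest probe set of Cops6 had an r of only 0.632, and that of Pde10a 0.155. The irradiated minus control difference was -0.28 for the Cops6 probe set, -0.39 for Ehhadh and -0.18 for Reep5, all smaller in size than that of Tmem182.

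Adhfe1 was most like Cetn4, Acp1 and B3galt1 (r = 0.997 for each), and Ndrg2 most like Agpat3 (r = 0.996), Ubqln1 (r = 0.995) and Aqp7 (r = 0.994). The Aqp7 probe set here is not its brightest, which had an r of 0.645. Agpat3 makes phosphatidic acid, a precursor of triglyceride. Slc36a2 was most like Zfp942, Slc7a2 and Pcbd2 (r from 0.98 to 0.984), and Car3 most like Bcor, Tcaim and Tpm3 (r from 0.98 to 0.984). St3gal6, by its brightest probe set, was most like Zkscan14, Gatad2a and Pank1 (r from 0.977 to 0.989). That probe set, 1447841_x_at, differed by only -0.05 between the arms, and the leading probe sets of St3gal6 were not compared in this way. Lgals12 was most like Cpne8, Atl3 and Gnai3 (r from 0.986 to 0.991). Of these 23 genes, 14 were found through a probe set that is not the gene's brightest, and in 9 of the 14 the brightest had an r under 0.7.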

How the data were processed

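For each array the authors deposited a log2 level for every probe set, rounded to 2 decimals. The submitters' processing notes name RMA, affy and limma, without versions or the part each played. RMA's quantile normalization hides shifts common to the whole array, and its usual scale is the basis for taking the logs as base 2. Of 45101 probe sets, 64 Affymetrix controls were left out, and 34945 of the other 45037 have 1 gene symbol in the platform annotation. Scanner files were not used here.

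Irradiated minus control and experiment differences were fitted with limma 3.58.1 in R 4.3.3 (lmFit, eBayes) on all 6 arrays, with experiment and arm as terms, two-sided, with Benjamini-Hochberg adjustment over 45037 probe sets, a threshold of 0.05 and no filter on level. The series design pairs the cultures of an experiment, and deviations of paired arrays from their arm means correlated with r = 0.629, 0.142 and 0.505 in experiments 1, 2 and 3. Unpaired arrays gave r from -0.539 to 0.153. Deviations within an arm cancel out by construction, so high paired values push the unpaired ones down. The 0.153, between irradiated culture 2 and control culture 3, is above the value of the experiment 2 pair. The pairing in experiment 2 therefore rests on the design alone. The fit was tested on simulated data with planted changes, of which only the 2-fold ones were scored by calls. It recovered these when the noise was drawn from limma's moderated variances. Those are the variances that the fit itself assumes, so this recovery does not measure the power here. In an earlier run with noise from the unmoderated variances the fit called none of the planted changes. A count of 0 between the arms therefore does not show that changes of that size are absent. The number of arrays, 3 per arm, limits the precision, and the median SE was 0.0882 for irradiation and 0.108 for an experiment difference.

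The members and gene lists were chosen with earlier results of these data known. All 7 members are named with every probe set. From each list the 2 genes with the smallest unadjusted p for irradiation and the 2 with the smallest p of an F test over experiments could be named, each by its brightest single-gene probe set, and all relatives of members. Pattern likeness names 5 genes for Tmem182 and 3 for each other member. Fabp4, Adipoq, Pck1, Lep, Ucp1, the muscle regulators, Cebpd, which completes a count, and the neighbours were named beside this rule. Alternatives were no block, a random block, quantile normalization, median centring, a filter on level, a trend with a robust prior, array weights, the mean of a gene's probe sets, no arm term, and leaving out experiments or arrays.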

Additional observations from a re-analysis of the deposited data

How the results depend on the processing

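All 10 leading probe sets had a negative irradiated minus control difference under each of the 11 other settings run for that contrast. Much of this follows from their definition, since a probe set lower in all 3 pairs is also lower on average without any 1 experiment. The block settings, the filter on level and the prior do not change the estimate. The shared sign is therefore no independent evidence. Leaving out 1 experiment gave -0.92 to -0.86 for Tmem182, -0.78 to -0.51 for Slc36a2, and -0.71 to -0.22 for Lgals12 1417686_at. St3gal6 1449078_at was at -0.23 without experiment 3. The sizes shrank with the mean of a gene's probe sets, to -0.59 for Car3, -0.31 for Adhfe1, -0.20 for St3gal6 and -0.32 for Lgals12. With no replicate block the difference of Tmem182 was -0.89 as well, since the design is balanced, and the block changed no count of calls, which was 0 with and without it. The count past adjusted p 0.05 was 1 with an intensity trend and a robust prior, and that probe set was Tmem182, whose choice used the same contrast, so it is no independent evidence. The other 10 settings gave 0.

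Between experiments 2 and 1 the number of probe sets called, 234, was 374 with the filter on level, 742 with the trend and robust prior, 151 with the mean of probe sets, which tests fewer features, and 0 to 0 without any 1 array. Between experiments 3 and 1 the 1374 called became 2513, 3698, 750 and 0 to 0 under the same settings, and the member count of 3 became 0 with no arm term, 1 with quantile normalization, 1 with the mean of probe sets and 0 to 0 without any 1 array. Between experiments 3 and 2 the 16 called became 64, 315, 33 and 0 to 0, and 52 with no arm term. For the member count with no arm term, the arm difference that the members were chosen for counts as error. Over all probe sets 1866 were called with no arm term between experiments 3 and 1. Other than for that error, the lost array, which leaves 1 residual degree of freedom, and the number of features tested, the cause was not tested. Of 182 further values for irradiation 13 moved, 9 with the mean of probe sets and 2 with median centring, by more than the spread between pairs, and 2 by a change of sign, both dim probe sets of Car3 without experiment 1. With the mean of probe sets these 2 probe sets changed sign as well, from 0.06 and 0.03 to -0.59. Of 597 between experiments 25 lost and 2 gained a call, and 36 changed sign, all of differences that had not passed. Car3 between experiments 2 and 1 was at -0.69 for 1449434_at and -0.56 for 1460256_at, and at 0.27 and 0.32 without irradiated culture 2.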
